A study of Mus musculus with 8 samples.

Results

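The genes described here make, break down and sense retinoic acid in bone marrow-derived macrophages (BMDMs). They are 10 of the 55359 genes of the series: Aldh1a1, Aldh1a2, Aldh1a3, Rdh10, Dhrs3, Cyp26b1, Rara, Rarb, Rarg and Rxrb. They were found by matching their Ensembl identifiers to GENCODE symbols, but as a set they were chosen by their measured values in these same samples. Their values are therefore a description, given without p-values.

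All samples came from BMDMs of adult male and female C57BL/6 wildtype mice, grown in M-CSF and GM-CSF, and total RNA was sequenced from 4 groups of 2 samples. Ctrl was naïve Mϕ with neither co-culture nor LPS/IFNγ. LPS was naïve Mϕ given LPS at 100 ng/mL and IFNγ at 100 U/mL for 6 h. Eff was Mϕ kept for 16 h with apoptotic NIH-3T3 CA fibroblasts, 5 for each Mϕ, in the presence of 10 nM dimerizer and then washed. LPSEff was Mϕ that met apoptotic fibroblasts in this way and then received LPS/IFNγ at the same doses for 6 h. NIH-3T3 CA is a mouse fibroblast line whose transgenic caspase-8 is switched on by the dimerizer, and it is a single clone. CD45+ cells were isolated with magnetic beads before RNA extraction. Nothing in the labels says whether the 2 samples of a group came from separate cultures or mice, so that every test below measures only the spread between these samples.

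Values are the deposited normalized counts, in which the reads of a gene are divided by 1 size factor per sample. Samples held from 3481288 reads (Ctrl 1) to 12020918 reads (Ctrl 2). Differences between groups are given as log2(normalized count + 1) with a standard error, and a gene is called when its limma adjusted p is under 0.05 over the 16309 genes that averaged 10 normalized counts or more. All 9 markers of Mϕ were detected, with summed values from 89449 to 142950 normalized counts per sample. The sum over 20 markers of fibroblasts was 1794 and 1677 normalized counts in Ctrl and 3844 and 4339 in LPS. It was 2522 and 5731 in Eff and 9595 and 11638 in LPSEff, so that Eff 1 lay below both LPS samples. Fstl1 alone gave 1580 and 1232 in Ctrl and 2869 and 3259 in LPS, both without co-culture. In Eff it gave 709 and 1655, and without Fstl1 in the sum Eff 1 would lie above both LPS samples. Of 18 markers tested, 7 were called higher in Eff than in Ctrl and 8 in LPSEff than in LPS. Without co-culture, 3 (Col5a1, Pdgfrb and Fbn1) were called higher in LPS than in Ctrl. In bulk RNA, fewer cells of a type and less RNA per cell cannot be told apart.

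Retinoic acid is the active form of vitamin A. Retinol is oxidised to retinal by dehydrogenases such as RDH10, a step that DHRS3 runs in reverse, and retinal is then oxidised irreversibly to retinoic acid by the ALDH1A enzymes. CYP26 enzymes remove retinoic acid, which otherwise binds nuclear receptors made of a RAR and an RXR subunit. Cells of the myeloid lineage that express Aldh1a2, among them dendritic cells grown in GM-CSF, are known as a source of retinoic acid for T cells.

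Receptor pairs of RAR and RXR bind direct repeats of a short half-site, and a repeat with 5 bases between the half-sites is the classical retinoic acid response element. It was sought on both strands of RefSeq promoter windows (250 bases before to 50 after a start, from a table of build GRCm38.p6), which held 8 of the 10 genes but neither Aldh1a3 nor Rdh10. A match was present for 31 of 27025 genes (0.115%), 2 of which belong to the retinoid pathway: Rarb, the RARβ gene, and Cyp26a1, a retinoic acid-degrading enzyme. These stretches are shown because they are the textbook readouts of retinoic acid inside the pathway, with the repeat in capitals. Both lie on the + strand, at chr14:5894228-5894256 for Rarb and at chr19:37686218-37686246 for Cyp26a1 in GRCm39, where each was placed by an exact and single match.
Rarb: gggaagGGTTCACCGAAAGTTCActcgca
Cyp26a1: taaagaTGAACTTTGGGTGAACTaatttg
The Rarb repeat spans positions -53 to -37 before the RefSeq start and reads along the gene, while that of Cyp26a1 spans -32 to -16 and matches on the opposite strand. Neither gene was much expressed in any group. Rarb had 1 to 7 reads per sample, and its values were 1.90 and 4.05 normalized counts in Ctrl, 2.59 and 4.06 in LPS, 4.38 and 3.53 in Eff, with LPSEff at 3.96 and 1.27. Rarb also shares 2612 exon bases with Top2b on the opposite strand, a gene with a mean of 614 normalized counts. Whether any of these few reads came from Top2b was not tested. Cyp26a1 also had 1 to 7 reads per sample. It had 1.90 and 1.16 normalized counts in Ctrl, 9.05 and 3.05 in LPS, 2.63 and 0.71 in Eff, with LPSEff at 5.54 and 3.81. Both had means under 10 normalized counts and were not tested, and a change in either was not detectable at this depth. The shorter spacing of 2 bases (DR2) was present for 0.311% of genes and for none of the 8.

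Among the ALDH1A genes of the set, Aldh1a2 was the main transcript in every group. Aldh1a2 (chromosome 9, 71122630 to 71203527, GRCm39) stood at 343 and 317 normalized counts in Ctrl, 556 and 752 in LPS, 73.6 and 66.3 in Eff, with LPSEff at 182 and 128. The 4 groups did not overlap, and they ran in the order LPS, Ctrl, LPSEff, Eff. After efferocytosis the mean was 4.72-fold lower without LPS/IFNγ (log2 difference of Eff against Ctrl -2.22, SE 0.25) and 4.22-fold lower with it (LPSEff against LPS -2.07, SE 0.25). LPS/IFNγ went with a higher level in both settings, 1.98-fold in naïve Mϕ (log2 difference 0.97, SE 0.25) and 2.22-fold in efferocytic Mϕ (1.12, SE 0.25). Efferocytic Mϕ with LPS/IFNγ thus held less Aldh1a2 transcript than naïve Mϕ without it. The difference between both LPS/IFNγ differences was 0.15 on the log2 scale (SE 0.35), smaller than its own error.

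The other retinal dehydrogenases were scarce. Aldh1a1, which serves in many epithelia, had at most 2 reads in any sample and 0 in both Eff samples, so that no difference was detectable. Aldh1a3 had 4 to 25 reads per sample, with 11.4 and 4.05 normalized counts in Ctrl, 32.3 and 5.08 in LPS, 20.2 and 8.47 in Eff, with LPSEff at 18.2 and 5.08. Replicate 1 was above replicate 2 in each group, all 4 groups overlapped, and the log2 differences, between -0.40 and 0.85, were all smaller than their SE of 0.97.

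**Figure D1:**
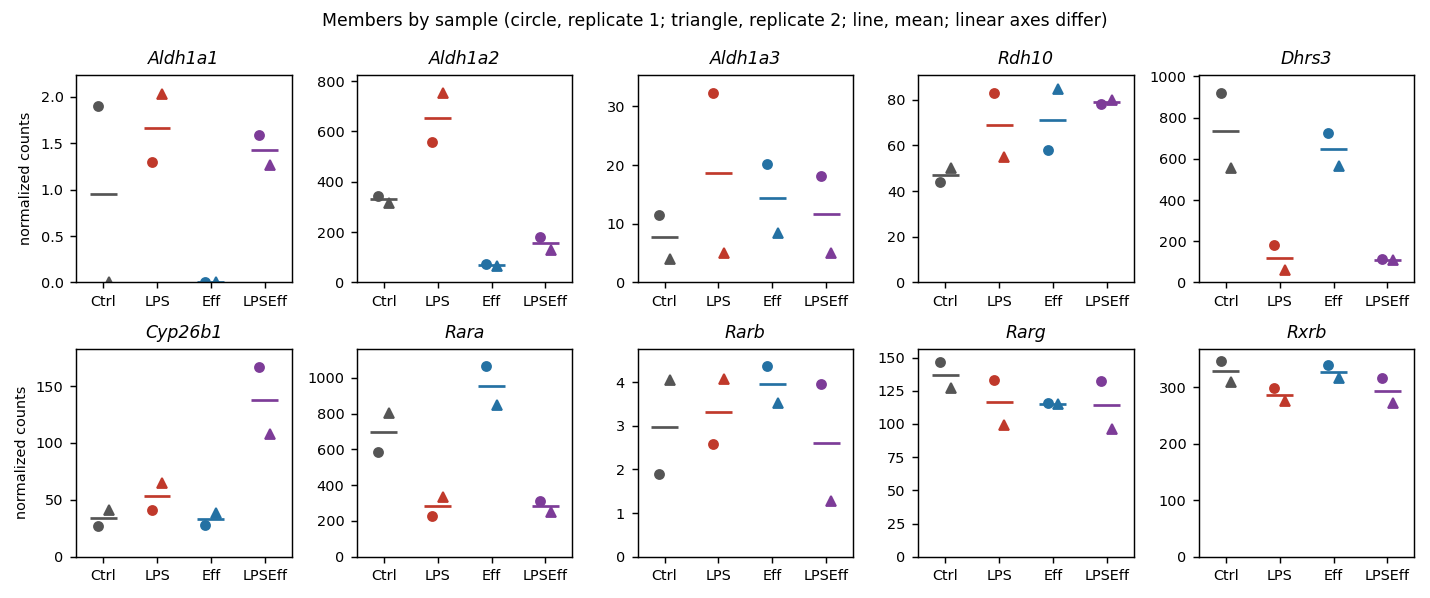
Normalized counts (linear vertical axes that differ between genes and start at 0) of the 10 genes in the 4 groups, with a circle for replicate 1, a triangle for replicate 2 and a line for the mean. Aldh1a2 is separate in all groups, from 66.3 in Eff to 752 in LPS, while Dhrs3 and Rara split by LPS/IFNγ and Cyp26b1 is above 100 in LPSEff alone.

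The enzymes that interconvert retinol and retinal differed from each other. Dhrs3, which reduces retinal to retinol and is a known target of retinoic acid in many cells, had 918 and 553 normalized counts in Ctrl and 726 and 565 in Eff, against 180 and 60.9 in LPS and 114 and 108 in LPSEff. No sample with LPS/IFNγ reached any without it. The mean was 6.11-fold lower in LPS than in Ctrl (log2 difference -2.75, SE 0.46) and 5.82-fold lower in LPSEff than in Eff (-2.52, SE 0.46). Prior efferocytosis made little difference to Dhrs3, with log2 differences of -0.15 for Eff against Ctrl and 0.08 for LPSEff against LPS, both under the SE of 0.46.

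Rdh10, the retinol dehydrogenase of the opposite direction, ranged from 43.8 to 84.7 normalized counts. It had 43.8 and 50.3 normalized counts in Ctrl, 82.8 and 54.8 in LPS, 57.8 and 84.7 in Eff, with LPSEff at 78.4 and 80.0. Both Ctrl samples were below the other 6, but the log2 differences from Ctrl were 0.51 for LPS and 0.57 for Eff (SE 0.31), and Rdh10 was called in no comparison. Per kilobase of exon, mean Dhrs3 exceeded mean Rdh10 in all groups, by 227 to 10.2 normalized counts per kb in Ctrl and 199 to 15.5 in Eff, but only by 37.1 to 14.9 in LPS and 34.2 to 17.2 in LPSEff.

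Cyp26b1, the retinoic acid-degrading enzyme that was expressed here, was highest where efferocytosis and LPS/IFNγ came together. It had 26.7 and 41.1 normalized counts in Ctrl, 41.4 and 65.0 in LPS, 28.0 and 38.1 in Eff, with LPSEff at 167 and 108. Both LPSEff samples were above the other 6. The mean was 4.16-fold higher in LPSEff than in Eff (log2 difference 2.00, SE 0.38) and 2.58-fold higher than in LPS (1.35, SE 0.38), while LPS exceeded Ctrl by 0.63 and Eff differed from Ctrl by -0.02 (both SE 0.38). The LPS/IFNγ difference was larger by 1.37 (SE 0.54) in efferocytic than in naïve Mϕ, and this interaction was not called for Cyp26b1 or for any of the 16309 genes by limma. By limma, 199 genes had a higher and 112 a lower interaction at an unadjusted p under 0.05, and edgeR and DESeq2 also called 0. Summed fibroblast markers were also highest in LPSEff, and in Eff they stood at 2522 and 5731 normalized counts, against 1794 and 1677 in Ctrl. Fstl1, which was also present without co-culture, gave 3949 and 5892 normalized counts of the sums in LPSEff. It gave 709 and 1655 in Eff, and 1580 and 1232 in Ctrl. The part of fibroblast RNA in the Cyp26b1 values was not tested.

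Among the receptor genes of the set, Rara and Rxrb had the highest values. Rxra, outside the set, had a higher mean than either in Ctrl, Eff and LPSEff (803, 1081 and 315 normalized counts). Its mean was lower than either in LPS (184). Rara (RARα) had 588 and 803 normalized counts in Ctrl and 1066 and 850 in Eff, against 230 and 335 in LPS and 313 and 253 in LPSEff. As for Dhrs3, all 4 samples with LPS/IFNγ lay below all 4 without it. The mean was 2.46-fold lower in LPS than in Ctrl (log2 difference -1.30, SE 0.26) and 3.39-fold lower in LPSEff than in Eff (-1.76, SE 0.26). Eff was above Ctrl in both samples, by 0.47 on the log2 scale (SE 0.26), and was not called.

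The other receptors of the set moved little. Rarg (RARγ) had 147 and 127 normalized counts in Ctrl, 133 and 99.5 in LPS, 116 and 115 in Eff, with LPSEff at 132 and 96.5, with log2 differences from -0.24 to -0.03 (SE 0.26). Rxrb (RXRβ) ranged over all 8 samples from 272 to 347 normalized counts, with log2 differences between -0.19 and 0.03 (SE 0.19). Neither was called in any comparison.

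**Figure D2:**
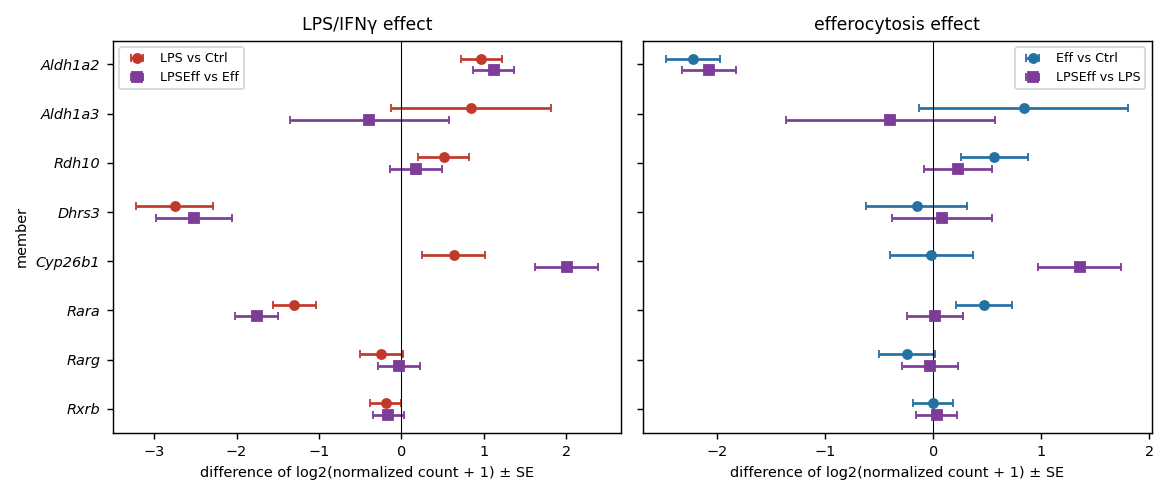
Differences of log2(normalized count + 1) between groups, with bars of 1 SE, for the 8 genes that could be tested, with LPS/IFNγ on the left and efferocytosis on the right. Aldh1a2 lies near -2.22 and -2.07 for efferocytosis, Dhrs3 and Rara lie below 0 for LPS/IFNγ in both settings, and Cyp26b1 reaches 2.00 in efferocytic Mϕ.

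In all, 8 of the 10 genes could be tested, and what was called has to be read beside the share of all genes called. For LPS against Ctrl, 1 was called higher (Aldh1a2; 12.4% of all genes tested) and 2 lower (Dhrs3 and Rara; 11.6%). For LPSEff against Eff, 2 were called higher (Aldh1a2 and Cyp26b1; 10.7%) and 2 lower (Dhrs3 and Rara; 8.95%). For Eff against Ctrl, 0 were called higher (0.215% of all genes) and 1 lower (Aldh1a2; 0.0368%, which is 6 genes). For LPSEff against LPS, 0 were called higher (0.73%) and 1 lower (Aldh1a2; 0.0429%, which is 7 genes). Since the set was chosen with these contrasts known, nothing can be read from these counts. The median log2 difference of the 8 was 0.16, -0.09, -0.01 and 0.02 in these 4 comparisons in turn, against -0.01, 0.01, -0.01 and 0.00 over all genes tested. edgeR and DESeq2 on the recovered reads called the same genes as limma.

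With 2 samples a group, leaving out 1 library left 1 sample in its group, and some of these calls were then lost. The Aldh1a2 difference of Eff against Ctrl stayed between -2.30 and -2.15 when a Ctrl or Eff sample was left out. Aldh1a2 was no longer called for Eff against Ctrl without either Ctrl or either Eff sample, for LPSEff against LPS without LPS 2, LPSEff 1 or LPSEff 2, for LPS against Ctrl without Ctrl 1, Ctrl 2 or LPS 2, and for LPSEff against Eff without Eff 1, Eff 2 or LPSEff 1. Dhrs3 was no longer called for LPSEff against Eff without Eff 1, Rara for LPS against Ctrl without Ctrl 2, and Cyp26b1 for LPSEff against Eff without Eff 1 or LPSEff 1. With samples rescaled to equal totals, the median of all genes shifted to -0.41 for LPS against Ctrl and -0.44 for LPSEff against Eff, and the calls over all genes changed from 2015 higher and 1895 lower to 1407 and 4308 in the former and from 1753 and 1460 to 1210 and 4359 in the latter. On that scale the LPS/IFNγ differences of Aldh1a2 were 0.57 and 0.67 and not called, Rxrb was called lower in LPSEff than in Eff (-0.61), and Rdh10 turned to -0.27 in that comparison. After quantile normalization, Rarg stood at 0.02 in LPSEff against Eff.

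Per kilobase of exon, which allows levels of different genes to be compared, Dhrs3 led the 10 genes in Ctrl (227 normalized counts per kb) and in Eff (199), ahead of Rara (111 and 152). In LPS, Aldh1a2 led with 142 per kb, ahead of Rxrb (66.5), and their sample ranges did not overlap. In LPSEff, Rxrb led with 68.1 per kb, ahead of Rara (44.9), Dhrs3 (34.2) and Aldh1a2 (33.6), of which the last pair overlapped. In Ctrl, Aldh1a2 had 71.4 per kb and overlapped Rxrb (76.1), and in Eff it had 15.1 and overlapped Rdh10 (15.5). Rarb and Aldh1a1 were last in all groups, at no more than 0.473 per kb.

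The genes with profiles most like those of the set were sought by Pearson's r over the 8 samples, among 10861 genes that averaged 50 normalized counts or more. The 8 points fall into 4 groups, and r is given as a description only. Batf3, a transcription factor needed by cross-presenting dendritic cells, was the most like Aldh1a2 (r = 0.977), followed by Mex3b, an RNA-binding protein (0.963), and Clec12a, an inhibitory lectin receptor of myeloid cells (0.960). For Dhrs3 these were Arl11 (r = 0.995), Tmem40 (0.990) and Pknox2 (0.989). For Rara they were Ndufs7, a subunit of respiratory complex I (r = 0.991), Rrp8 and Ercc8 (both 0.986). For Cyp26b1 they were Ypel5 (r = 0.980), Tbcel (0.965) and the atypical MAP kinase gene Mapk6 (0.963). Rxrb was most like Tet3, which oxidises methylcytosine (r = 0.976), Mapk8ip3 (0.968) and Tbc1d20 (0.965). Rarg was most like Hps4 (r = 0.964), Clec10a (0.937) and the proteasome gene Psmb5 (0.921), and Rdh10 most like Cope, Exoc7 (both 0.919) and Bcar1 (0.913). Within the set, Dhrs3 went with Rxrb (r = 0.842) and Rara (0.831) and against Cyp26b1 (-0.791), while Aldh1a2 had no r beyond -0.521, that with Rara.

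Batf3 belonged to a list of 9 dendritic cell markers, of which 7 could be tested. It had 162 and 119 normalized counts in Ctrl, 162 and 219 in LPS, 50.8 and 49.4 in Eff, with LPSEff at 73.6 and 60.9. Its log2 difference was -1.45 for Eff against Ctrl (SE 0.27, limma adjusted p = 0.112) and -1.48 for LPSEff against LPS (SE 0.27, adjusted p = 0.0633), so that it missed the threshold in both. All 7 had values below 0 in both comparisons (median log2 difference -0.35 and -0.81), and limma called 0 of them. At an unadjusted p under 0.05 there were 2 and 3, edgeR called 0 in both and DESeq2 called 1 in each. The 9 markers summed to 3985 and 4626 normalized counts in Ctrl, 9138 and 17482 in LPS, 2657 and 3296 in Eff, with LPSEff at 7349 and 7409. The largest part of each sum came from Ccr7, which dendritic cells raise on maturation. Over the 8 samples, Zbtb46 ranged from 112 to 745 normalized counts, Xcr1 from 28.9 to 636 and Flt3 from 17.5 to 220, while Clec9a and Cd209a stayed at or below 13.2 and 8.10. With LPS/IFNγ, 5 of the 7 tested markers had log2 differences above 0 in naïve and in efferocytic Mϕ. Kit and Cd24a went the other way, Kit by -1.86 and -1.93 (SE 0.26) and Cd24a by -0.49 and -0.47 (SE 0.37). The part of dendritic cell transcripts in the Aldh1a2 values was not tested.

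**Figure D3:**
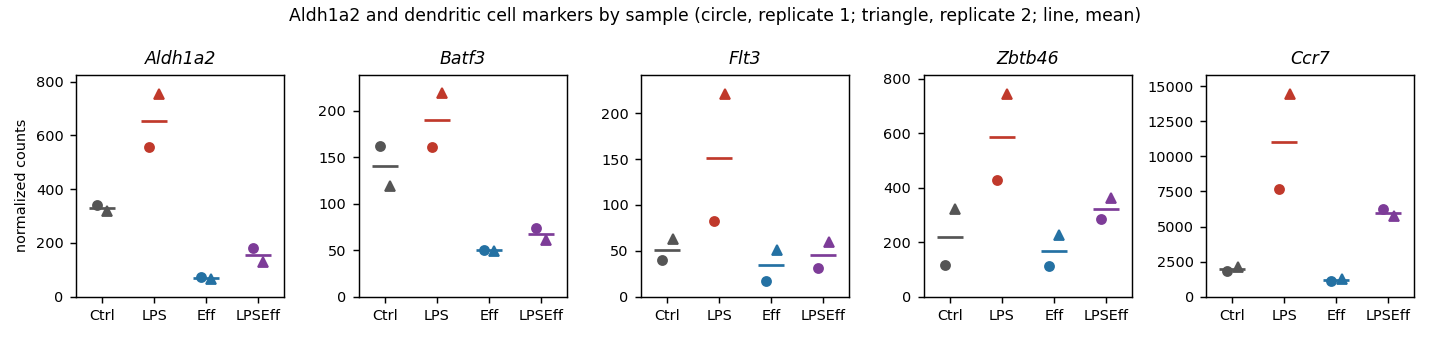
Normalized counts (linear vertical axes that differ between genes and start at 0) of Aldh1a2 and 4 of the 9 dendritic cell markers in the 4 groups, with a circle for replicate 1, a triangle for replicate 2 and a line for the mean. Aldh1a2 and Batf3 are lowest in Eff and LPSEff, at or below 182 and 73.6, while Ccr7 in LPSEff (6243 and 5720) stays above Ctrl.

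A further 70 genes of the retinoid pathway, grouped by role, show what went on around the set, and 51 of them could be tested. In naïve Mϕ, 8 of them were called higher with LPS/IFNγ and 6 lower, with a median log2 difference of 0.17. Of all genes tested, 12.4% were called higher and 11.6% lower, with a median of -0.01. In efferocytic Mϕ, 9 were called higher and 8 lower, with a median of 0.34. There, 10.7% and 8.95% of all genes tested were called, with a median of 0.01. With samples rescaled to equal totals the pathway counts became 5 higher and 12 lower, and 7 and 15. Over all genes tested they became 1407 and 4308, and 1210 and 4359. The counts by role that follow have to be read beside these shares.

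Of the receptor partners, Rxra (RXRα) fell with LPS/IFNγ. Rxra had 884 and 722 normalized counts in Ctrl, 191 and 177 in LPS, 1075 and 1087 in Eff, with LPSEff at 277 and 353. Its log2 difference was -2.11 in naïve Mϕ (SE 0.20, limma adjusted p = 0.000281) and -1.79 in efferocytic Mϕ (SE 0.20, adjusted p = 0.000649). Rxrg, the remaining RXR gene, had at most 3 reads in any sample.

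Among receptors that pair with RXR, 2 of 8 tested rose and 1 fell in naïve Mϕ, and 4 rose and 1 fell in efferocytic Mϕ. Pparg, a receptor for fatty acids, fell, with log2 differences of -2.86 (limma adjusted p = 0.00337) and -2.91 (adjusted p = 0.0036). Its mean went from 138 normalized counts in Ctrl to 19.03 in LPS (SD 38.6 and 9.67, n = 2 each), and from 108 in Eff to 14.3 in LPSEff (SD 8.19 and 6.74). Nr4a2, an orphan receptor induced by many stimuli, rose by 2.53 (adjusted p = 0.000704) and 1.52 (adjusted p = 0.00824). Nr1h2 (LXRβ) rose by 0.90 and 0.84 (adjusted p = 0.0208 and 0.0311). In efferocytic Mϕ, Vdr, the vitamin D receptor, also rose, by 1.33 (adjusted p = 0.00872), and Ppard, another receptor for fatty acids, by 1.01 (adjusted p = 0.0463). The calls of Nr1h2 and Ppard were lost with samples rescaled to equal totals.

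Of 9 tested genes of retinoid uptake, binding and storage, 1 rose and 2 fell in naïve Mϕ, and 0 rose and 2 fell in efferocytic Mϕ. Stra6l, a receptor for retinol-binding protein, fell by 1.75 in naïve (limma adjusted p = 0.00209) and by 1.98 in efferocytic Mϕ (adjusted p = 0.00133). Fabp5, which carries fatty acids and retinoic acid to the nucleus, fell by 1.11 (adjusted p = 0.0216) and by 1.38 (adjusted p = 0.0103). Bco2, which cleaves carotenoids, rose in naïve Mϕ by 2.52 (adjusted p = 0.0309), on 1 to 29 reads per sample.

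Among 10 tested dehydrogenases and related oxidases outside the set, Dhrs9 and Rdh13 fell in both settings. Dhrs9, which can oxidise retinol, had 192 and 296 normalized counts in Ctrl, 66.0 and 81.2 in LPS, 391 and 503 in Eff, with LPSEff at 118 and 129. Its log2 differences were -1.69 (limma adjusted p = 0.00318) and -1.84 (adjusted p = 0.00256). Those of Rdh13 were -1.14 (adjusted p = 0.00616) and -0.93 (adjusted p = 0.0165). In efferocytic Mϕ, Rdh11, a retinal reductase, rose by 1.87 (adjusted p = 0.00748) and Cyp1b1, a cytochrome that can oxidise retinol, by 1.98 (adjusted p = 0.0101). Both missed the threshold in naïve Mϕ (0.94 and 1.20, adjusted p = 0.089 and 0.0619), and the difference between settings was not called (adjusted p = 1.00 for both).

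Genes that retinoic acid is known to induce elsewhere were raised in part. Of 11 tested, 4 rose and 0 fell in naïve Mϕ, and 3 rose and 1 fell in efferocytic Mϕ. Tgm2 (transglutaminase 2) went from 977 and 647 normalized counts in Ctrl to 9744 and 4901 in LPS, and from 1576 and 926 in Eff to 13848 and 9059 in LPSEff, rises of 3.12 (limma adjusted p = 0.00129) and 3.21 (adjusted p = 0.00126). Cd38, an NAD-consuming ectoenzyme, rose by 3.81 (adjusted p = 0.00216) and 3.92 (adjusted p = 0.00219). Plat, the tissue plasminogen activator, rose by 4.73 (adjusted p = 0.0013) and 3.04 (adjusted p = 0.011). Each of them also has other known inducers. The remaining calls were Rarres2, which rose by 1.20 in naïve Mϕ (adjusted p = 0.0432) but lost its call when any 1 library was left out, and Rai1, which fell by 0.74 in efferocytic Mϕ (adjusted p = 0.0474) and was not called by edgeR or DESeq2.

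Of the 12 coregulators tested, 1 was called in naïve Mϕ. Nrip1, a corepressor of nuclear receptors, rose by 0.79 in naïve Mϕ (limma adjusted p = 0.0154). This call was lost with samples rescaled to equal totals. With any 1 library left out, the calls of Rxra, Pparg, Stra6l, Dhrs9, Tgm2 and Cd38 held in both settings, and those of Rdh13, Nr4a2 and Plat held in naïve Mϕ. In naïve Mϕ, Fabp5 lost its call without Ctrl 1, Ctrl 2 or LPS 1, Bco2 without Ctrl 1, LPS 1 or LPS 2, Nrip1 without Ctrl 1, Ctrl 2 or LPS 2, and Nr1h2 without Ctrl 1, Ctrl 2 or LPS 1. In efferocytic Mϕ, Rdh11 lost its call without Eff 1, Cyp1b1 and Vdr without Eff 1 or LPSEff 2, Nr4a2 without Eff 2 or LPSEff 2, Plat without Eff 1 or either LPSEff sample, Fabp5 without either Eff sample or LPSEff 1, and Rdh13 without any 1 Eff or LPSEff sample. Also in efferocytic Mϕ, Ppard and Nr1h2 lost theirs without any 1 Ctrl or Eff sample or LPSEff 1, and Rai1 without any 1 sample outside LPS.

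**Figure D4:**
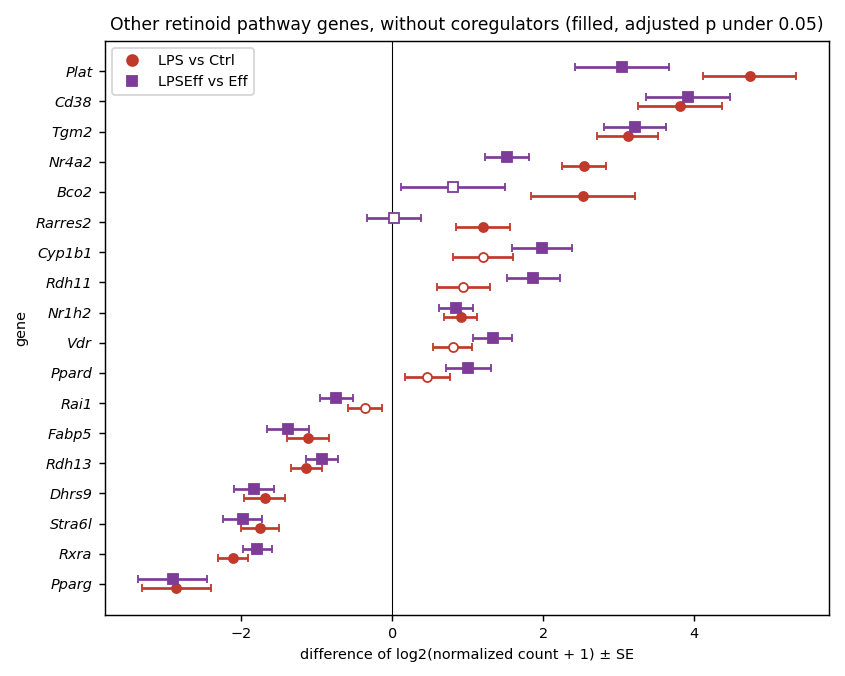
Differences of log2(normalized count + 1) with bars of 1 SE for the retinoid pathway genes outside the set, coregulators left out, that were called for LPS against Ctrl (circles) or LPSEff against Eff (squares), filled where called. Pparg, Rxra, Stra6l and Dhrs9 are filled and below 0 in both settings, from -2.91 to -1.69, and Plat, Cd38, Tgm2 and Nr4a2 are filled and above 0 in both.

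After efferocytosis, limma called 0 of the 51 pathway genes, both for Eff against Ctrl and for LPSEff against LPS. Of all genes tested, 0.215% were called higher and 0.0368% lower for Eff against Ctrl, and 0.73% and 0.0429% for LPSEff against LPS. At an unadjusted p under 0.05, 4 were higher and 0 lower in the former and 7 higher and 3 lower in the latter. edgeR called 0 in both, and DESeq2 called 1 and 3. The largest values belonged to Crabp1, a cytoplasmic carrier of retinoic acid, with 1.90 and 0 normalized counts in Ctrl, 1.29 and 0 in LPS, 9.64 and 72.0 in Eff, with LPSEff at 45.9 and 69.8. It was singled out after its values were seen, as was Adh7, an alcohol dehydrogenase (1.90 and 2.89 in Ctrl, 42.8 and 66.0 in LPSEff). Adjusted p for LPSEff against LPS was 0.0765 for Crabp1 and 0.18 for Adh7 by limma. Fibroblast markers moved in the same way: of 18 tested, 7 were called higher in Eff than in Ctrl and 8 in LPSEff than in LPS, with median log2 differences of 3.35 and 3.77, and Lum and Postn were too low to test. The part of fibroblast RNA in the values of Crabp1 and Adh7 was not tested.

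Motifs of the factors that LPS and IFNγ activate were sought in the same promoter windows. The NF-κB element was present for 9.55% of all genes and, in the set, for Cyp26b1, Rara and Rxrb. The core of the interferon-stimulated response element, GAAA and GAAA with any 2 bases between them, was present for 3.99% of all genes and, in the set, for Dhrs3 and Rarg. The Dhrs3 stretch is shown since this gene had the greatest LPS/IFNγ difference of the set. It lies at chr4:144619515-144619536 on the + strand of GRCm39, with the core in capitals at positions -126 to -117, matched on the opposite strand.
Dhrs3: ccccccTTTCTTTTTCtggaga
These matches describe letters in a window and do not show that a factor binds there.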

How the data were processed

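Total RNA of 8 BMDM samples in 4 groups of 2 was depleted of rRNA and sequenced. Per the labels and the methods of the study, the authors used cutadapt for trimming, Bowtie2 against remaining rRNA, STAR for alignment to mm39 and htseq-count for counting. Tool versions and the annotation release are not given in the sources used here. The authors deposited normalized counts from DESeq2, a signal for each gene. Dividing a sample by its smallest value above 0 gave whole reads for 100% of values (within 0.01 reads).

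Of 55359 identifiers, 54749 had a GENCODE symbol. The main test was limma-trend (limma 3.58.1, R 4.3.3) for log2(normalized count + 1), on 16309 genes averaging 10 or more, all 4 groups in 1 fit with 4 residual degrees of freedom, and Benjamini-Hochberg adjustment over all genes per contrast. The deposited table has no filter on low values, so that this one was added. A pseudocount of 1 understates differences of low genes. The members and gene lists were chosen with earlier results of these data known. Named were all 10 members, up to 5 called rises and 5 called falls of other pathway genes per contrast, remaining calls in brief, 3 most-like genes per member, and markers where a result turned on them. Alternatives were a pseudocount of 0.5 or of 5, a minimum mean of 50 or none but above 0, a fit of only the groups compared, a replicate block, quantile normalization, equal totals, edgeR 4.0.16 with TMM and DESeq2 1.42.0 on recovered reads, and leaving out each library. edgeR and DESeq2 with the replicate block were added after seeing the data. Some results are not reported here. The main limma fit was checked on simulated counts, for LPS against Ctrl. edgeR, DESeq2 and the other alternatives were not checked on simulated counts. A floor of 3 reads, which covers counting error only, equals 5.71 normalized counts in the shallowest sample.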

Additional observations from a re-analysis of the deposited data

How the results depend on the processing

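No called difference of the 10 genes reversed its direction under any alternative that was run. Pseudocounts of 0.5 and 5, and a mean of at least 50, left the counts of the set and of the other pathway genes within 1.5 times. Over all genes, the 35 called higher and 6 lower for Eff against Ctrl became 16 and 4 with a mean of at least 50, 70 and 9 with a mean above 0, 7 and 2 with only the groups compared, 42 and 10 after quantile normalization, 12 and 2 in edgeR and 164 and 40 in DESeq2. The 119 higher and 7 lower for LPSEff against LPS became 66 and 0 with only the groups compared, 148 and 17 after quantile normalization, 122 and 15 with equal totals and 287 and 81 in DESeq2. With only the groups compared in the fit, 0 of the set were called for LPSEff against LPS (1 in the main analysis). Of the other pathway genes, for LPSEff against LPS, 1 was called with genes of a mean above 0, 1 after quantile normalization and 3 by DESeq2, and for Eff against Ctrl 1 by DESeq2 (0 in the main analysis). The cause was not tested. Fitting only the groups compared was not run for the interaction.

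Leaving out 1 library at a time, with the lone sample of a group assumed to vary like the others, gave 1 to 3 genes of the set called for LPS against Ctrl, 1 to 4 for LPSEff against Eff, 0 to 1 for Eff against Ctrl and 0 to 1 for LPSEff against LPS. For the other pathway genes the ranges were 9 to 14 for LPS against Ctrl, 7 to 19 for LPSEff against Eff and 0 to 1 for LPSEff against LPS, with 0 throughout for Eff against Ctrl. The low end was 9 without Ctrl 1 for LPS against Ctrl, and 7 without Eff 1 for LPSEff against Eff (10 without LPSEff 1, 11 without LPSEff 2).

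Samples with the same replicate number deviated from their group means together (r from 0.404 to 0.595 over 16309 genes), but the labels do not say that a number marks a shared preparation, and 2 numbers cannot settle it. With the replicate block, 2 of the set were called for LPSEff against LPS (Aldh1a2 lower, Cyp26b1 higher), also by edgeR and DESeq2 with the block, which were chosen after seeing the data. Over all genes, the block in limma gave 277 higher and 159 lower for Eff against Ctrl, 704 and 433 for LPSEff against LPS, 3337 and 3380 for LPS against Ctrl, and 3101 and 2932 for LPSEff against Eff. Of the other pathway genes, the block gave 28 calls for LPS against Ctrl in limma, edgeR and DESeq2 (14 in the main analysis), 26 in edgeR for LPSEff against Eff (17), 3, 2 and 4 in limma, edgeR and DESeq2 for Eff against Ctrl (0), and 10, 11 and 11 for LPSEff against LPS (0). DESeq2 with the block called 20 genes higher and 9 lower in the interaction over all genes, none of the set among them.

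Depth limits Aldh1a1, Rarb and Cyp26a1, which had at most 7 reads in a sample.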

Other observations

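Rbp4 and Asb2, which no comparison called, had higher values in replicate 2 than in replicate 1 in every group. Rbp4, the plasma carrier of retinol, had 81.9, 146, 117 and 126 normalized counts in replicate 1 of Ctrl, LPS, Eff and LPSEff, and 740, 1682, 607 and 1329 in replicate 2. Asb2, a ubiquitin ligase subunit that retinoic acid induces in myeloid leukaemia cells, had 169, 154, 178 and 215 in replicate 1 and 540, 663, 373 and 543 in replicate 2. Both were singled out after their values had been seen. Other pathway genes, among them Hdac3 and Tbl1xr1, were also higher in replicate 2 in every group. Replicate 2 was also the deeper library in Ctrl, LPS and Eff, and the shallower in LPSEff. The part of depth or preparation in these values was not tested.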
